A study of Homo sapiens with 4 samples.

Results

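The genes described here are 30 genes of glucose entry, glycolysis and lactate handling. They were taken by symbol from the 59885 genes in the authors' deposited table. For 30831 of them the base mean, the mean normalized count over all libraries, was above 0. All 30 were measured and all 30 have an adjusted p, as 16629 genes do. RNA sequencing compared PANC-1, a line from a human ductal adenocarcinoma of the pancreas, after knockout of CFL1 with control cells of that line, in 2 libraries each, on total RNA. CFL1 encodes cofilin-1, which severs actin filaments. The labels name no guide, clone, passage or treatment for either group, so whether the knockout cells are 1 clone is not known. Separate cultures are not stated, so a p-value here sets the group difference against a spread between libraries that may be technical.

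Glucose enters a cell through carriers of the SLC2A family and is trapped by hexokinase. Phosphofructokinase then commits it to glycolysis, aldolase splits the sugar, and the later enzymes harvest ATP and end in pyruvate. Lactate dehydrogenase turns pyruvate into lactate, which leaves through SLC16A carriers, while pyruvate dehydrogenase kinases hold back its entry into the mitochondrial cycle. Pancreatic ductal tumours and their cell lines are known for high glucose uptake and lactate output, and many of these genes are textbook targets of hypoxia-inducible factor, HIF.

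The authors' deposited table has no column per library, and the whole reads of each library were recovered from it, exactly for all 30 genes. The recovered libraries are named control A, control B, knockout A and knockout B. The letters match no replicate number in the labels, and 4 counts given without library names stand in that order. Totals of recovered reads lay between 14920209 and 17833140 a library, deep enough that the members were read from 34 times (SLC2A3 in control B) upward. CFL1 itself had a normalized count (reads divided by the authors' size factor) of 6276 and 13761 in controls A and B, and 2285 and 2487 in knockouts A and B, so both knockouts lay below both controls. The CFL1 log2 fold change by the authors' deposited table is -2.07 (SE 0.45, adjusted p = 0.00168). Control B was set apart from the rest in markers chosen for the line. Among these, KRT19 and SOX9 were high only in control B, and KRT7 was low only there. All 4 libraries are labelled PANC-1, and whether the cells of any library were of that line was not tested. Because the controls differed, each difference of the 30 genes is also given from control A alone or with its counts. This choice does not mark control A as the truer PANC-1 library. Some neighbouring genes are given only by the deposited log2 fold change, which pools both controls. KRT19, a ductal keratin, had a normalized count of 2481 in control B, 1.82 in control A and 0 in both knockouts. SOX9, a ductal transcription factor, stood at 3513 in control B against 63.6 in control A and 156 and 183 in the knockouts. KRT7 went the other way, with 108 in control B and 3551 to 4000 elsewhere. VIM, the mesenchymal filament gene vimentin, was read at 57155 in control B and at 7747 to 9273 elsewhere, and CDH2, N-cadherin, at 155 and at 483 to 586. The line's other keratins, KRT8 and KRT18, were high in all 4 libraries, and EPCAM, an epithelial adhesion molecule, was low in all 4. Both keratins were highest in control B and lower in each knockout than in either control. KRT8 counted 13713, 29355, 8150 and 8049, and KRT18 11358, 22850, 9031 and 8321. Markers of other cell types were near 0 with 2 exceptions, those of leukocytes in control B and of fibroblasts. Summed over 4 leukocyte markers the count was 1218 in control B and 27.0 to 36.3 elsewhere. In control B nearly all of it was CD68, with PTPRC at 0. The acinar sum reached 15.1, the endocrine sum 2.24, the hepatocyte sum 1.12 and the endothelial sum 38.2, while the fibroblast sum lay between 869 and 1580. Within that sum COL1A1 was high in control B, at 1574 against 354 to 687 elsewhere, and PDGFRB low, at 6.71 against 439 to 513. The part of these differences in the results below was not tested. In bulk RNA, fewer cells of a type and less RNA per cell cannot be told apart.

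None of the 30 genes passed the test between knockout and control. By the authors' deposited table, 0 of 30 had an adjusted p under 0.05 (DESeq2), where 0.559% of the 16629 genes tested did. At an unadjusted p under 0.05 there were 6 members, all lower in the knockouts: SLC2A1, SLC16A1, HK1, PFKP, ENO2 and PKM. Among all genes whose base mean reached 100, which holds every member, 10.4% were lower and 3.7% higher at that level in the authors' deposited table. On the recovered reads, limma likewise called 0 of 30 over the 4 libraries (0.0% of 24976 genes), with 0 members at an unadjusted p under 0.05 (2.04% of genes) and a lowest adjusted p of 0.722. That fit did not call CFL1 either, at a log2 difference of -1.96 and an adjusted p of 0.722. With voom, the count-weighted form of limma, both member counts were again 0, where 0.0% and 1.76% of genes reached those levels.

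What the 4 libraries show instead is a pair of knockouts that resemble each other and control A, with control B far from all 3. The knockouts differed from each other by a median of 0.08 on the log2(count + 1) scale and by 0.33 at most, in ALDOA. No member differed by more than 1.5-fold between the knockouts, against 1.83% of genes whose base mean reached 100. The controls differed by a median of 0.82 and by more than 2-fold for 14 of the 30 genes, against 38.6% of those genes. They differed by more than 4-fold for 6, against 14.8%: SLC2A3, PFKM, PFKP, ALDOC, ENO3 and PDK4. The mean of the knockouts lay nearer to control A than to control B for 23 of 30, against 84.6% of those genes. It differed from control A by more than 1.5-fold for 3 members, SLC16A1, PFKFB4 and PDK4, against 9.0%.

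The 2 knockouts lay on the same side of both controls for 19 of the 30 genes (63.3%), against 47.3% of genes whose base mean reached 100. Of these, 10 were below both controls (22.8% of those genes), namely SLC2A1, SLC16A1, HK1, GPI, PFKP, PGK1, PGAM1, ENO1, ENO2 and PKM. The other 9 were above both (24.5%), namely SLC2A3, PFKL, PFKM, ENO3, LDHB and all 4 PDK genes. Over the 30 genes, the log2 fold change by the authors' deposited table is negative for 17 and positive for 13, with a median of -0.11, beside -0.03 over all genes with an adjusted p. Taken from the recovered reads against each control alone, the median difference came to 0.09 from control A and to -0.22 from control B.

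**Figure D1:**
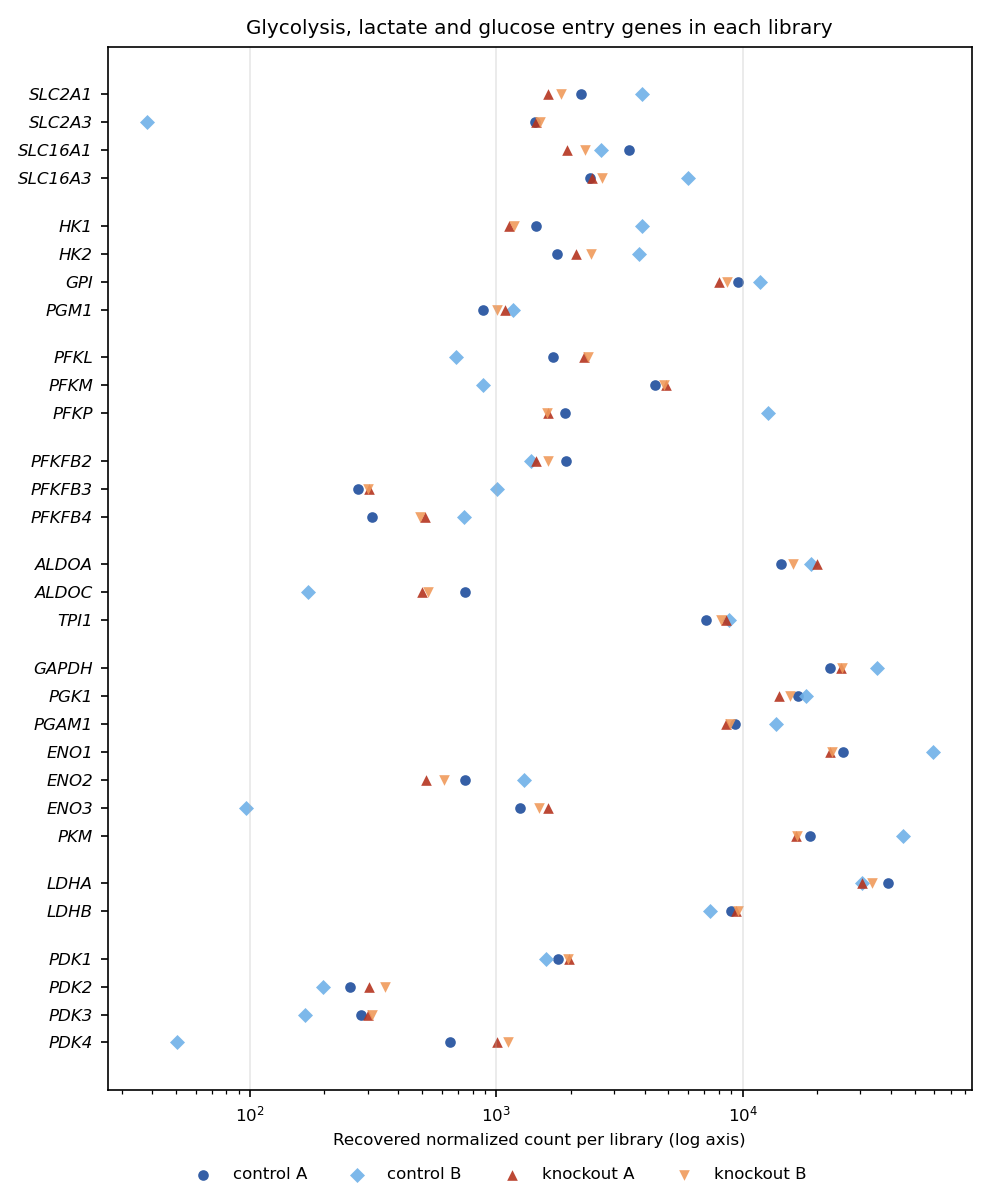
Normalized count (log axis) of each of the 30 genes in the 4 libraries, grouped by role from carriers at the top to pyruvate dehydrogenase kinases at the bottom. The 2 knockout points lie close together on every line, and control B stands farthest to the left for SLC2A3, ENO3 and PDK4 and farthest to the right for PFKP and ENO1.

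Among the carriers, SLC2A1 and SLC16A1 were lower in each knockout than in either control. SLC2A1, the main basal glucose carrier GLUT1, had normalized counts of 2198 and 3919 in controls A and B, and 1624 and 1829 in knockouts A and B. The knockout mean was 0.785 times control A and 0.441 times control B. In the authors' deposited table the log2 fold change of SLC2A1 is -0.82 (SE 0.38, unadjusted p = 0.0299, adjusted p = 0.344). SLC2A3 encodes GLUT3, a carrier of higher glucose affinity. Its counts were 1433 and 38.0 in controls A and B and 1449 and 1508 in the knockouts, so that control B alone was low and the other 3 lay together. The authors' deposited table gives SLC2A3 a log2 fold change of 1.01 with an SE of 1.81, an interval (95%) from -2.55 to 4.56.

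SLC16A1 encodes the lactate carrier MCT1, which works in both directions. It stood at 3469 and 2658 in controls A and B, and 1933 and 2297 in knockouts A and B. This was the member with the lowest ratio of the knockouts to control A, 0.610, and the controls were nearer to each other than for most members, at a ratio of 0.766 of control B to control A. Its log2 fold change by the authors' deposited table is -0.53 (SE 0.26, unadjusted p = 0.0430, adjusted p = 0.380). SLC16A3 encodes MCT4, the exporter of lactate from glycolytic cells. Its 4 counts were 2411, 6011, 2435 and 2688, with the knockout mean at 1.06 times control A and control B alone high. Per kilobase of transcript, SLC16A1 made up 41.7% of the pair and 18.0% in controls A and B, and 28.3% and 29.8% in knockouts A and B. The knockouts thus lay between the controls in that share. With no length, SLC16A1 was the larger part in control A, at 59.0%, and the knockouts again lay between the controls.

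The hexokinases, which phosphorylate glucose, parted from each other against control A. HK1, the widely expressed form, counted 1449.6 and 3915 in controls A and B, and 1122 and 1183 in knockouts A and B, below both controls in the knockouts. The authors' deposited table gives HK1 a log2 fold change of -1.22 (SE 0.54, unadjusted p = 0.0239, adjusted p = 0.322). HK2, the inducible form of growing and tumour cells, counted 1759.5, 3793, 2096 and 2413 in the same order, so the knockouts lay between the controls. Per kilobase, HK1 made up 56.9% of the pair in control A and 62.3% in control B, but 46.2% and 44.0% in knockouts A and B. The knockouts were therefore on the same side of both controls in this share, and HK2 was the larger part in them. With no length, HK2 was the larger part in control A too, at 54.8%. The HK1 share was not tested.

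GPI, which turns glucose 6-phosphate into fructose 6-phosphate, counted 9545 and 11754 in controls A and B, and 8043 and 8609.9 in knockouts A and B. All 4 libraries lay within a narrow range, with the knockouts at 0.872 times control A. The log2 fold change of GPI in the authors' deposited table is -0.35, with an interval (95%) from -0.78 to 0.07. PGM1 links glucose 6-phosphate to glucose 1-phosphate and so to glycogen. Its counts were 879.8, 1167, 1086 and 1002, and the knockouts lay between the controls.

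All 3 phosphofructokinase subunits differed by more than 2-fold between the controls, while the knockouts stayed nearer to control A. PFKP, the platelet-type subunit, counted 1904 and 12679 in controls A and B, and 1624 and 1610.0 in knockouts A and B. Control B was 6.66 times control A, while the knockouts were at 0.849 times control A and 0.128 times control B. In the authors' deposited table PFKP has the lowest log2 fold change of the 30 genes, -2.17 (SE 0.83, unadjusted p = 0.00855, adjusted p = 0.229). PFKM, the muscle-type subunit, counted 4389, 879.6, 4900.0 and 4817, the reverse pattern, with control B at 0.200 times control A. PFKL, the liver-type subunit, counted 1704, 687, 2277 and 2362. Both PFKM and PFKL were higher in the knockouts than in either control, by 1.11 and 1.36 times control A. The authors' deposited table gives them log2 fold changes of 0.88 (SE 0.74) and 0.96 (SE 0.51).

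Per kilobase, the subunit make-up was close in control A and the knockouts and different in control B. PFKM was the main subunit at 53.4% in control A, 54.5% in knockout A and 53.7% in knockout B. In control B it was 5.64%, and PFKP was 89.9%, against 25.6% in control A and 19.97% and 19.8% in the knockouts. PFKL held 20.9% and 4.44% in controls A and B, and 25.5% and 26.5% in knockouts A and B. The summed level of the 3 subunits was 2798 counts per kilobase and 5313 in controls A and B, and 3063 and 3059 in knockouts A and B. The total in the knockouts was thus between the 2 controls.

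**Figure D2:**
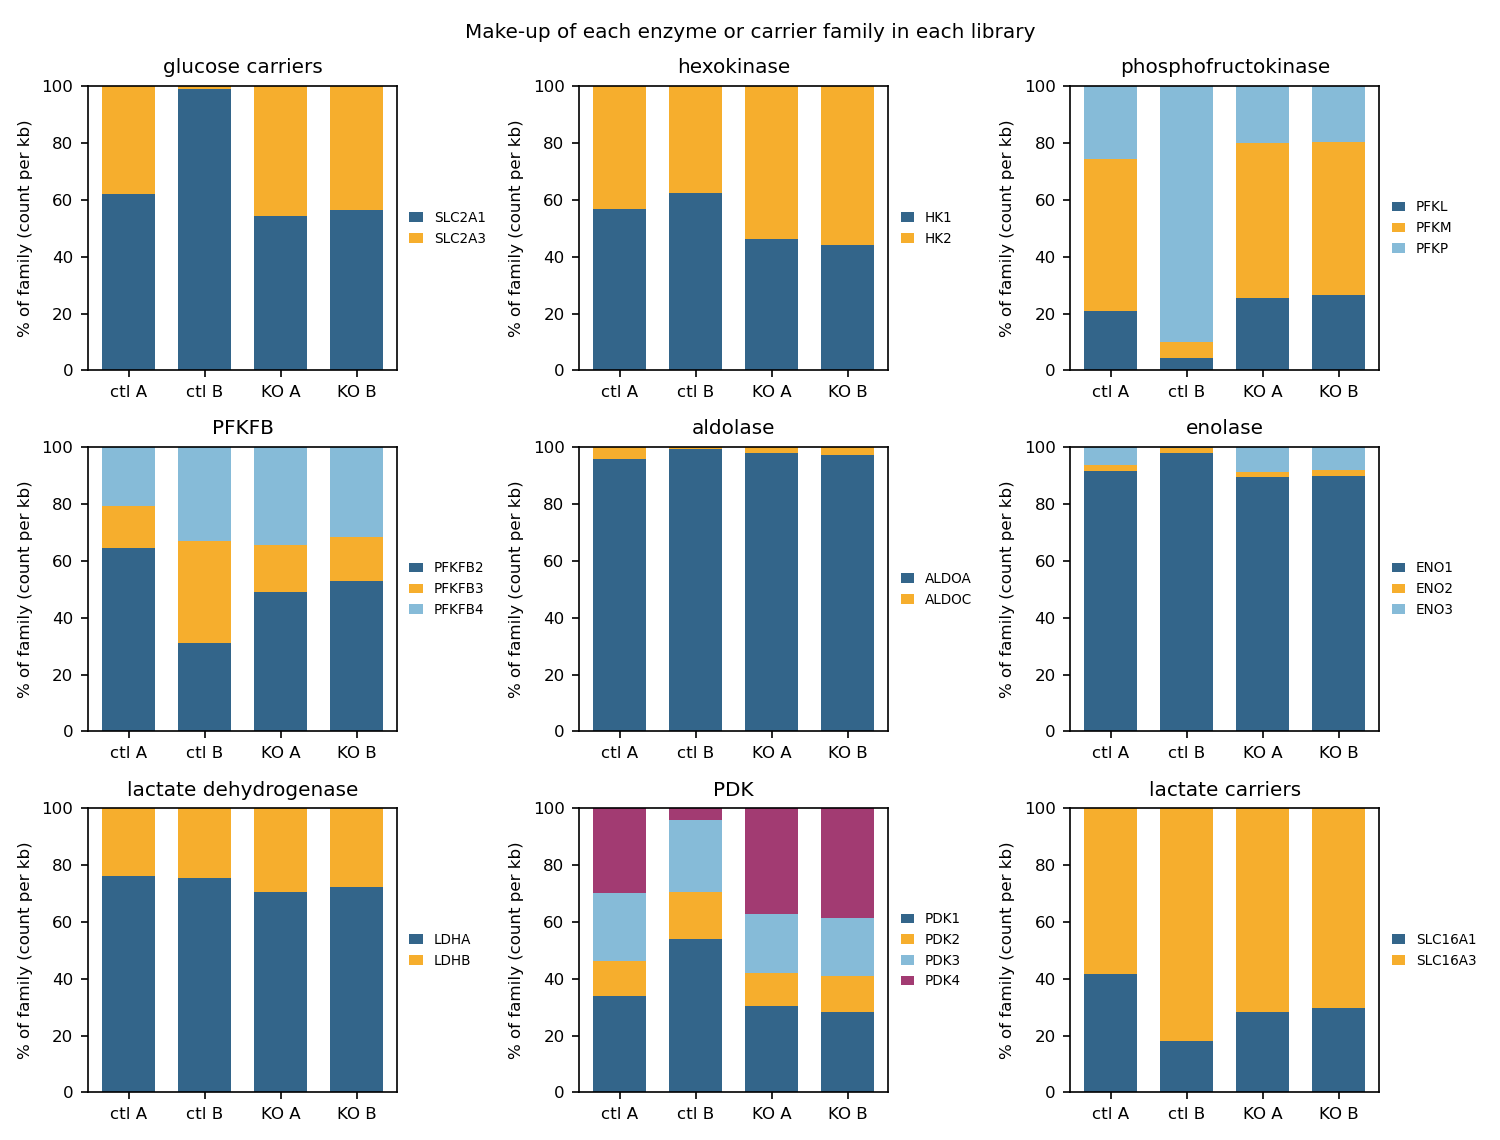
Share of each gene in its enzyme or carrier family (percent of the summed normalized count per kilobase of the principal transcript) in each library, with ctl for control and KO for knockout. Control B holds 89.9% PFKP and 99.1% SLC2A1, against 19.8% to 25.6% and 54.5% to 62.1% in the other 3 libraries.

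The PFKFB enzymes make and remove fructose 2,6-bisphosphate, the strongest activator of phosphofructokinase. PFKFB3, the form with the highest kinase activity, counted 274 and 1006 in controls A and B, and 305 and 301 in knockouts A and B. PFKFB4, the form known from testis, counted 314, 735, 514 and 487, and PFKFB2, the form known from heart, 1924, 1378, 1449 and 1619.7. For all 3 genes the knockouts lay between the controls. PFKFB4 was 1.60 times control A in the knockouts, 1 of the 3 members past 1.5-fold against that control, but 0.681 times control B. Its log2 fold change by the authors' deposited table, -0.07, changed sign under limma, at 0.06.

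Of the splitting enzymes, ALDOA and TPI1 differed by less than 1.5-fold between the controls, though ALDOA had the widest gap between the knockouts of the 30 genes. Aldolase A, ALDOA, counted 14303 and 19002 in controls A and B, and 20075 and 15987 in knockouts A and B. TPI1, which interconverts the triose phosphates, counted 7112, 8781, 8537 and 8148. The authors' deposited table gives log2 fold changes of 0.11 (SE 0.28) for ALDOA and 0.07 (SE 0.22) for TPI1. ALDOC, the brain-type aldolase, counted 746, 172, 500.3 and 525, with the knockouts between controls that were more than 4-fold apart. ALDOA made up 95.8% to 99.2% of aldolase per kilobase in all 4 libraries.

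Of the 7 payoff genes, 5 were lower in each knockout than in either control, ENO3 was higher, and GAPDH lay between. GAPDH, which makes the NADH of the pathway, counted 22599 and 35031 in controls A and B, and 25195 and 25313 in knockouts A and B. PGK1, the ATP-making kinase after it, counted 16799, 18048, 14067 and 15652. PGK1 had the smallest gap between controls of all 30 genes, at a ratio of 1.07. Its log2 fold change by the authors' deposited table is -0.23, with an interval (95%) from -0.57 to 0.11. PGAM1, the mutase between PGK1 and enolase, counted 9277, 13714, 8537 and 8869.7, with the knockouts at 0.938 times control A.

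Enolase, which forms phosphoenolpyruvate, is encoded by 3 genes whose patterns differed. ENO1, the common form, counted 25571 and 59253 in controls A and B, and 22682 and 23081 in knockouts A and B. ENO2, the neuronal form, counted 743, 1294, 515 and 611. ENO3, the muscle form, counted 1241, 96.1, 1627 and 1495. ENO2 was 0.758 times control A in the knockouts, the lowest such ratio of the payoff genes, and in the authors' deposited table its log2 fold change is -0.85 (SE 0.40, unadjusted p = 0.0306, adjusted p = 0.345). For ENO1 the authors' deposited table gives -0.89 (SE 0.46, unadjusted p = 0.0537), and for ENO3 1.22 with an SE of 1.45. Per kilobase, ENO1 made up 91.7% of enolase and 98.0% in controls A and B, and 89.4% and 90.0% in knockouts A and B. ENO3 held 6.18%, 0.221%, 8.91% and 8.10% in the same order.

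PKM, whose product makes pyruvate and ATP, counted 18819 and 44822 in controls A and B, and 16549 and 16675 in knockouts A and B. The knockouts were at 0.883 times control A and 0.371 times control B. The authors' deposited table gives PKM a log2 fold change of -0.94 (SE 0.48, unadjusted p = 0.0484, adjusted p = 0.393). The M1 and M2 splice forms of PKM cannot be told apart in counts per gene.

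Lactate dehydrogenase was among the families least apart between the controls. LDHA, the subunit that favours lactate, counted 38850.0 and 30617 in controls A and B, and 30633 and 33626 in knockouts A and B. LDHB, the subunit that favours pyruvate, counted 8958, 7366, 9417 and 9625. LDHB was higher in each knockout than in either control, by 1.06 times control A. The log2 fold changes by the authors' deposited table are -0.11 (SE 0.22) for LDHA and 0.22 (SE 0.21) for LDHB. Per kilobase, LDHA made up 76.2% and 75.4% in controls A and B, and 70.6% and 72.1% in knockouts A and B. That share was lower in each knockout than in either control by a few percent, and the difference was not tested.

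All 4 pyruvate dehydrogenase kinases were higher in each knockout than in either control, and none passed the test. PDK4, the form known to follow fasting and fatty acid use, counted 648 and 50.3 in controls A and B, and 1005 and 1113 in knockouts A and B. Its ratio of knockouts to control A, 1.63, was the highest of the 30 genes, while control B stood more than 4-fold below control A. PDK4 has the highest log2 fold change of the members in the authors' deposited table, 1.60, with an SE of 1.04 and an adjusted p of 0.509. PDK1, a textbook HIF target, counted 1772, 1590.5, 1963 and 1961. PDK2, the widely expressed form, counted 254, 197, 303 and 352, and PDK3, the X-linked form, 281, 167, 302 and 313. The authors' deposited table gives log2 fold changes of 0.22 (SE 0.18) for PDK1, 0.53 (SE 0.33) for PDK2 and 0.46 (SE 0.42) for PDK3. The lowest adjusted p of the 4 genes there is 0.485. Summed per kilobase, the 4 kinases came to 608 and 343 in controls A and B, and 755 and 804 in knockouts A and B. PDK4 held 29.8%, 4.10%, 37.2% and 38.7% of that sum.

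**Figure D3:**
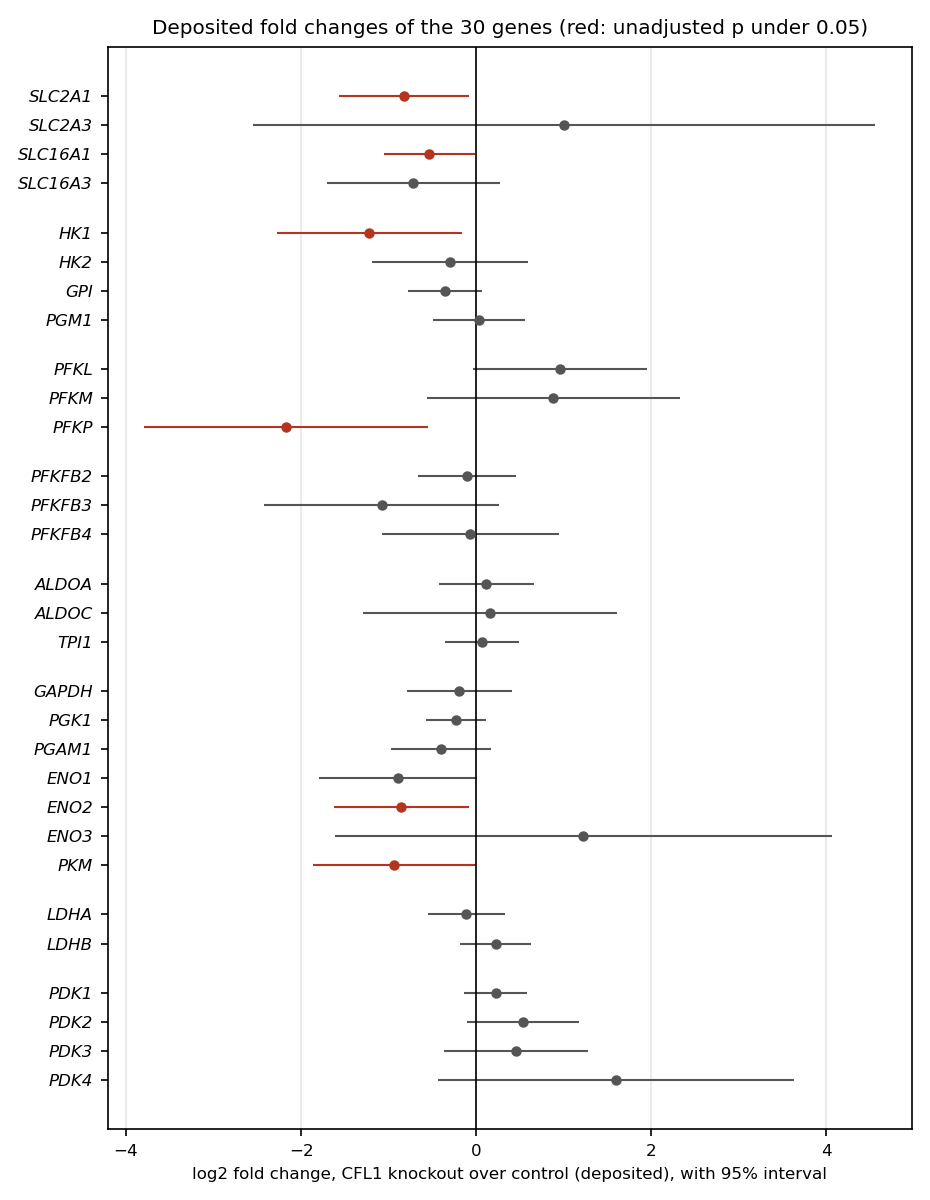
Log2 fold change of each of the 30 genes in the authors' deposited table (knockout over control), with 95% intervals from the deposited SE. The 6 genes in red have an unadjusted p under 0.05 and all lie left of 0, and the widest intervals belong to SLC2A3 and ENO3.

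By level, enzymes of the later steps and of lactate formation were among the most abundant. Per kilobase of principal transcript and averaged over the 4 libraries, GAPDH stood highest at 20055 counts, followed by LDHA at 17394, ENO1 at 15825, ALDOA at 11188 and PKM at 8913. The spread over libraries was wider than the steps between some of these. ENO1 ran from 10994 in knockout A to 28722 in control B, a range that spans the means of GAPDH, LDHA and ALDOA. TPI1 at 6616, LDHB at 6224 and PGAM1 at 5519 came next, and the ranges of the 3 genes over the libraries overlapped. The least abundant members were PDK2 at 80.3, PFKFB3 at 105, PDK3 at 138 and PFKFB4 at 143. This order depends on the transcript length used. The principal transcript of PFKFB4 has 3586 bases and its median coding transcript 1575. By base mean, with no length, LDHA at 33432 and ENO1 at 32647 stood above GAPDH at 27035.

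For the members whose knockouts lay between the controls, the direction depended on the control library. With control B left out, limma called 0 of 30 (0.0% of 23915 genes). At an unadjusted p under 0.05 there were then 11 members, 6 lower (SLC2A1, SLC16A1, HK1, PFKFB2, ALDOC and ENO2) and 5 higher (HK2, PFKL, PFKFB4, ENO3 and PDK4), where 14.3% of genes reached that level, 5.78% lower and 8.48% higher. SLC16A1 had the largest negative difference in that fit, -0.72, and PDK4 the largest positive one, 0.71. With control A left out, limma called 15 of the 30, 8 lower and 7 higher, where 33.8% of 25163 genes were called, 16.5% lower and 17.3% higher. The differences ran there from -2.97 for PFKP to 5.24 for SLC2A3. In both of these fits the lone control is assumed to vary as the knockouts do, with 1 residual degree of freedom.

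**Figure D4:**
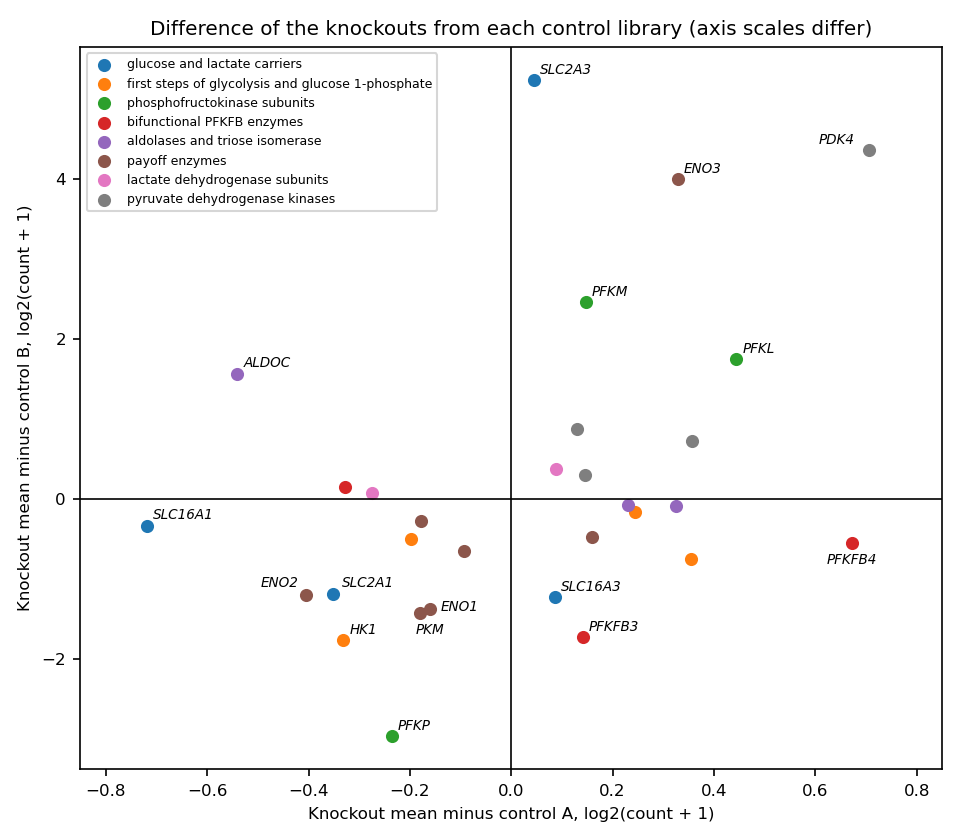
Mean of the 2 knockouts minus control A (horizontal) and minus control B (vertical) on the log2(count + 1) scale for each of the 30 genes, coloured by role, with axes of unequal scale. Differences from control A stay between -0.72 and 0.71, and those from control B run from -2.97 (PFKP) to 5.24 (SLC2A3).

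Promoter letters are shown for 6 members because they hold the core letters bound by HIF, the regulator for which these genes are best known. They span members whose controls were within 2-fold of each other (PGK1, GAPDH, LDHA and PDK1) and the pair of phosphofructokinase subunits that differed most between the controls. The sequences are from RefSeq (GRCh38.p14), lie before the annotated start on the plus strand, and show ACGTG or its reverse complement CACGT in capitals, which includes the E-box CACGTG.
PGK1: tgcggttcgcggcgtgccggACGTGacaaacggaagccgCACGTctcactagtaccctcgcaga
GAPDH: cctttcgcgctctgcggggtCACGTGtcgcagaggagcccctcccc
LDHA: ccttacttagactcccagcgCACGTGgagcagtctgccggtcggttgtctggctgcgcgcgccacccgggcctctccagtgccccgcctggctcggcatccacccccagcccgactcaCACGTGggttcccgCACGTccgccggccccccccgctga
PDK1: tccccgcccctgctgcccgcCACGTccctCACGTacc
PFKP: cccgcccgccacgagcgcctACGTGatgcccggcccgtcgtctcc
PFKM: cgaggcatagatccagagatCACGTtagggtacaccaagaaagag

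The PGK1 stretch is at chrX:78104026-78104089, the GAPDH stretch at chr12:6535163-6535208 and the LDHA stretch at chr11:18394358-18394514. The PDK1 stretch is at chr2:172556053-172556089, the PFKP stretch at chr10:3069030-3069074 and the PFKM stretch at chr12:48105339-48105383. ACGTG was searched on both strands of windows from 250 bases before to 50 bases after each start. It occurred in 36.2% of the 58 windows of the 27 members that have a window, and in 21.4% of the 35116 windows of all genes. CACGTG, which always contains ACGTG, occurred in 12.1% and 7.26%. At least 1 window held ACGTG for 17 members, among them PFKM and PFKP, whose counts ran in opposite directions between the controls. A match describes the letters only.

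The neighbouring pathways held no gene that passed the test either. In 8 lists of 77 genes in all, the authors' deposited table calls none, where it calls 0.559% of the 16629 genes tested. Listed genes without an adjusted p could not be called. At an unadjusted p under 0.05 in that table, 10.4% of genes whose base mean reached 100 were lower and 3.7% higher. Some listed genes fall short of that base mean. In the pentose phosphate list, PGLS was higher at an unadjusted p under 0.05, with a log2 fold change of 1.27 by the authors' deposited table. TKT, a transketolase, counted 9611, 6786, 9583 and 10249, and TALDO1, the transaldolase, 2275, 3085, 2105 and 1937. Of 10 genes for the pyruvate carrier and the pyruvate dehydrogenase complex, which the PDK enzymes inhibit, 1 was past that level, PDPR, a regulator of its phosphatase, with a log2 fold change of -0.84 in the authors' deposited table. The E2 subunit gene DLAT counted 2086, 3078, 1977 and 1981, the E3 gene DLD 2579, 1504, 2403 and 2601, and the E1 gene PDHA1 2092, 909.8, 2153 and 1930.3.

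Among 15 other isoforms and gluconeogenic genes, 7 had an adjusted p, and PCK2 alone was past the unadjusted level, higher. PC, pyruvate carboxylase, counted 3677 and 474 in controls A and B, and 5815 and 5327 in knockouts A and B. ADPGK, an ADP-dependent glucokinase, counted 1422, 1339, 1198 and 1295, and TIGAR, a fructose bisphosphatase, 699.8, 549.9, 542 and 519.8. Of 10 other carriers and chaperones, 1 was higher and 3 were lower at that level. In the authors' deposited table these have log2 fold changes of 1.03 (SLC2A13), -0.98 (SLC2A6), -3.89 (SLC2A12) and -1.50 (EMB, a second chaperone of lactate carriers). BSG, the chaperone of the lactate carriers, was steady at 6982, 7099.6, 7651 and 8335. SLC16A7, the carrier MCT2, counted 2314 in control A and 1546 and 1767 in the knockouts but 8.94 in control B. SLC2A13, a myo-inositol carrier, counted 498, 349, 819 and 908 and has an adjusted p of 0.105 in the authors' deposited table.

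Of 8 glycogen genes, 1 was past the unadjusted level, GYG1, the glycogenin primer, at a log2 fold change of -1.27 in the authors' deposited table. PYGB, the brain-type glycogen phosphorylase, counted 1405 and 18690.0 in controls A and B, and 1534 and 1545 in knockouts A and B, so control B alone was high. UGP2, which makes UDP-glucose, counted 2630.2, 2263, 1803 and 1981. None of 8 HIF and oxygen-sensing genes was past that level. HIF1A counted 3663, 3009.9, 2586 and 2867, EPAS1, which encodes HIF-2 alpha, 3429.9, 722, 4329 and 4526, and the prolyl hydroxylase gene EGLN1 3334, 2468, 2656 and 2730.5. HIF1A thus lay below both controls in each knockout and EPAS1 above both, and the authors' deposited table gives them adjusted p-values of 0.580 and 0.516.

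Of 13 hypoxia targets outside glycolysis, 2 were higher and 1 was lower at an unadjusted p under 0.05. In the authors' deposited table these have log2 fold changes of 0.49 (VEGFA), 1.22 (ANKRD37) and -0.63 (P4HA2). NDRG1, a gene of the response to hypoxia and stress, counted 7449.7, 924, 8034 and 9399, the mitophagy receptor BNIP3L 3241, 1371, 2576 and 2728, and the prolyl hydroxylase P4HA1 1782, 2575, 1600.0 and 1860.2. In the list of 5 genes around MondoA, a glucose-sensing transcription factor, MLX, its partner, was past that level and lower. MLX counted 909.7 and 1224 in controls A and B, and 693 and 685 in knockouts A and B. MLXIP, which encodes MondoA, counted 1799, 2175, 1729 and 1806. TXNIP, a MondoA target that restrains glucose uptake, counted 909.7, 34.6, 2243 and 2765, higher in each knockout than in either control, with an adjusted p of 0.549 in the authors' deposited table.

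**Figure D5:**
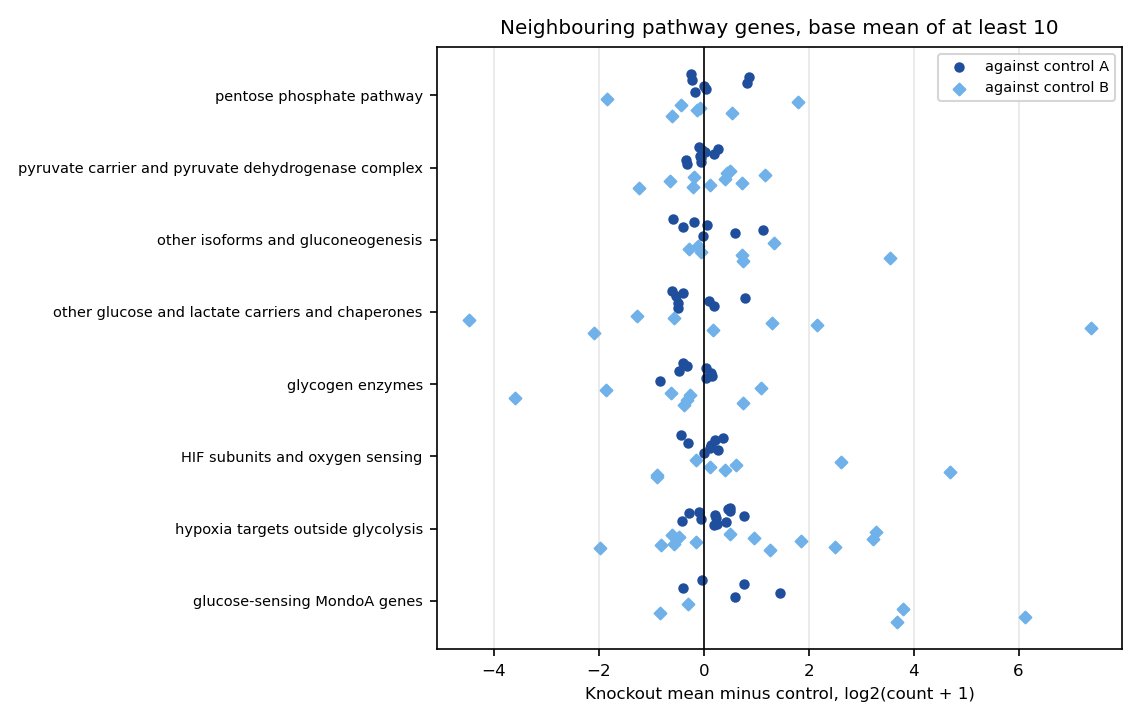
Mean of the knockouts minus control A (circles) and minus control B (diamonds) on the log2(count + 1) scale for each gene of the 8 neighbouring lists with a base mean of at least 10. The circles lie between -0.83 and 1.45, and the diamonds run from -4.49 (SLC2A12) to 7.38 (SLC16A7).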

How the data were processed

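Total RNA of 2 control and 2 CFL1 knockout libraries of PANC-1 cells was sequenced on an Illumina NovaSeq, with hg19 as the build and STAR, RSEM, cutadapt and FastQC as tools (no versions), per the submitters' processing notes. The labels ask for an RNA integrity number of at least 7. The authors deposited 1 DESeq2 result table. The base mean, as deposited by the authors, is a signal that averages normalized counts over the 4 libraries. The log2 fold change and its SE are the authors' deposited values on the log2 scale. The Wald score and the p-value columns, unadjusted and Benjamini-Hochberg adjusted over 16629 genes, were deposited by the authors too. The column that marks up- and downregulated genes equals an unadjusted p under 0.05.

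The 30 genes, the 8 neighbouring lists and the markers were chosen with earlier results of these data known. All 30 are named. Of each neighbouring list the 3 genes with the highest base mean are named, except that some results are not reported here, and any gene named for its unadjusted p, and those of the closing section, were chosen after their values were seen. ERO1A stands for a gene listed under an older symbol. Promoter windows carry the build GRCh38.p14, which is not the build of the table, and no other coordinates are given.

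A base mean printed to 15 digits is a sum of whole reads times 4 steps, 1 a library. Every set of reads that gives a base mean was enumerated, and a set was accepted where refitting the negative binomial model returned the deposited log2 fold change within 1e-09. This gave reads for 30708 of 30831 genes (99.6%), with a largest difference of 4.8e-14. Shifted base means, 150 in each of 5 ranges up to 50000, gave 0 accepted sets. Limma and the shares over recovered genes also used genes below a base mean of 3000 with only 1 set giving the base mean. Before the refit, 3 of 150 shifted base means from 1000 to 3000 had at least 1 set, and 0 of those from 10 to 1000. The authors' size factors came out as 1.10 (control A), 0.895 (control B), 1.13 (knockout A) and 0.927 (knockout B), and letter A marks the library with the larger factor in each group. RSEM estimates counts, so these are its rounded estimates, and reads of GAPDH, LDHA, PGK1, ENO1, TPI1, PGAM1 and others with near-identical pseudogenes may be divided among copies.

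A gene is called where the authors' adjusted p is under 0.05. The 95% intervals are the log2 fold change with its normal interval from the SE. Recovered reads were fitted with limma 3.58.1 (R 4.3.3, trended prior) as log2(normalized count + 1), where the mean was at least 1, a scale that understates the change of low genes. It was tested on simulated data whose libraries had the same profile apart from the changed genes, unlike the real controls. Counts per kilobase use the principal transcript of GENCODE. Alternatives were other filters and thresholds, a pseudocount of 0.1, a minimum mean of 10, upper-quartile scaling, voom and leaving out each library, and the length used for family shares, added after the data were seen. The intervals carry the spread between libraries through the authors' SE, and read totals say nothing of that spread. Python 3.11.15, numpy 2.4.6, pandas 2.3.3, scipy 1.17.1, numba 0.67.0 and matplotlib 3.10.9 were used.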

Additional observations from a re-analysis of the deposited data

How the results depend on the processing

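The count of 0 members called was the same without independent filtering, at base means of at least 10 and 100, at an adjusted p under 0.01, and with limma at either pseudocount, with a mean of at least 10, with upper-quartile scaling and with voom. By the authors' own mark, an unadjusted p under 0.05, it was 6. Leaving out 1 library at a time, limma called 0 to 15 members, the 15 without control A. The members' median log2 fold change, -0.11, ranged from -0.22 (without control A) to 0.09 (without control B) in those fits. The SD between the libraries' medians, pooled within the groups, was 0.37. It holds the same gap between the controls, so it does not show that the median is stable. The count of members whose knockouts lay outside the range of the controls stayed at 19 with upper-quartile scaling. PFKFB4 (main -0.07) changed sign to 0.059 at both pseudocounts and to 0.082 with upper-quartile scaling and with voom. Leaving out 1 library at a time, 11 members changed sign: ALDOA (-0.085 to 0.32), ALDOC (-0.54 to 1.57), GAPDH (-0.47 to 0.16), HK2 (-0.75 to 0.35), LDHA (-0.28 to 0.068), PFKFB2 (-0.33 to 0.15), PFKFB3 (-1.73 to 0.14), PFKFB4 (-0.55 to 0.67), PGM1 (-0.16 to 0.25), SLC16A3 (-1.23 to 0.086) and TPI1 (-0.074 to 0.23). These are the members whose knockout mean lay between the controls, so leaving out one control or the other had to give opposite signs. Family shares depend on the transcript length used, and the PDK shares most: PDK1 in control A was 34.0% per kilobase of the principal transcript and 57.7% of the median coding transcript. No paired analysis was possible because the deposited table has no column per library and the recovered libraries carry no replicate number. Counting error is widest for SLC2A3, PDK4 and ENO3 in control B, at 34, 45 and 86 reads.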

Other observations

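In the neighbouring lists, PCK2, VEGFA and PGLS lay above both controls in each knockout, as 24.5% of all genes whose base mean reached 100 did. They were chosen after their values were seen, and none passed the test. PCK2, the mitochondrial enzyme that makes phosphoenolpyruvate from oxaloacetate, had a normalized count of 272 and 358 in controls A and B, and 577 and 614 in knockouts A and B, so the knockouts were at 2.19 and 1.66 times the controls. The authors' deposited table gives PCK2 a log2 fold change of 0.92 (SE 0.29, unadjusted p = 0.00148, adjusted p = 0.124). VEGFA, the angiogenic growth factor, counted 1645, 1601, 2399.6 and 2149, with controls closer to each other than those of any of the 30 glycolysis genes. Its log2 fold change by the authors' deposited table is 0.49 (SE 0.18, unadjusted p = 0.00842, adjusted p = 0.229). PGLS, the lactonase of the pentose phosphate pathway, counted 267, 141, 536 and 446.

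ARRDC4, an arrestin-like gene that is a known MondoA target beside TXNIP, counted 394 and 45.8 in controls A and B, and 499 and 718 in knockouts A and B. Like TXNIP, it was higher in each knockout than in either control, and the authors' deposited table gives it a log2 fold change of 1.47 (SE 0.96, adjusted p = 0.514).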
